A study of Mus musculus with 18 samples.

Results

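C2C12 cells, a mouse myoblast line that divides in serum-rich growth medium (GM) and fuses into myotubes when serum is withdrawn, were compared with and without depletion of the kinase ERK3 while still in GM. The series holds 3 stable C2C12 lines, sampled in GM and after 2 days of differentiation (DM2), as 18 poly-A RNA-seq libraries in 6 groups of 3. The 6 libraries described here are the 3 of the ERK3-depleted line in GM and the 3 of the control line in GM, which were chosen by line and medium alone and set against each other across all 13939 tested genes. The ERK3-depleted line had been transfected with px459-Mapk6sg, by its name a px459 plasmid (a vector that carries Cas9, a guide scaffold and puromycin resistance) with a guide to Mapk6, the gene for ERK3. The control line had been transfected with a control plasmid, and the MK5-depleted line, used below for comparison, with px459-Mk5sg. The guide sequences are not given in the sources used here. All lines are stable transfectants, so that the control line also went through transfection. Neither the labels nor the design text says whether a line is 1 clone or a pool, or whether the 3 libraries of a line are separate cultures, so the p-values reflect no more than the spread among these samples.

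ERK3 is an atypical MAP kinase: its activation loop lacks the tyrosine that classical ERKs have phosphorylated, and it is phosphorylated by p21-activated kinases rather than by MEK. It binds and activates the kinase MK5 (gene Mapkapk5), and each partner affects the level and location of the other. In dividing myoblasts ERK3 protein turns over fast, and it accumulates during differentiation. In GM such cells are held in the cell cycle while MyoD, the factor that commits them to muscle, is present but restrained by Id proteins and other inhibitors. The series title names FoxO3, a transcription factor of atrophy, stress and cell cycle exit genes, as a target of ERK3 and MK5.

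The libraries carried the markers of myoblasts. Of 9 myoblast markers 8 had a mean of at least 1 CPM (counts per 1e6, with TMM-scaled library sizes) over the GM libraries, and Vgll2 lay below. The 8 macrophage and leukocyte markers and the 7 endothelial markers all lay below 1 CPM. Of 7 smooth muscle markers 5 reached it, with sums of 6919 to 8000 CPM in control and 6931 to 8623 in ERK3-depleted libraries. Myoblast markers, which share Des with that list, summed to 1755 to 2137 and 2362 to 2651 CPM. Of 9 cartilage and bone, 8 epithelium and 8 adipocyte markers 2 of each list reached 1 CPM. Of 12 fibroblast markers 9 lay above 1 CPM (Thy1, Lum and Clec3b did not), with a summed level of 1095 to 1131 CPM in control and 1041 to 1159 in ERK3-depleted libraries, most of it from Pdgfrb, Fbln2 and Ly6a, which were not called. Of the 9 fibroblast markers tested 4 were called lower (Pdgfra, Dpt, Pi16 and Dcn; 3.06% of all tested genes were), 8 had a negative log2 fold change and the median was -0.43. The 9 markers of differentiated muscle summed to 74.8 to 131 CPM in control and 151 to 261 in ERK3-depleted libraries, without overlap, and to 73.5 to 177 in MK5-depleted GM. In bulk RNA, fewer cells of a type and less of its RNA per cell cannot be told apart, nor can more of either. Gene counts came to 17.5 to 22.4 M per library (M stands for 1e6), and the mitochondrial share of those counts was lower in each ERK3-depleted library than in any control library (0.866 to 1.14% against 1.19 to 1.54%).

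Across all tested genes the ERK3-depleted line differed from control by many small steps. Calls were made at an adjusted p under 0.05 (edgeR quasi-likelihood fit over all 18 libraries, Benjamini-Hochberg adjustment over every tested gene). Of 13939 genes 946 (6.79%) were called, 519 higher (3.72%) and 427 lower (3.06%) in ERK3-depleted cells. Of the called genes 672 differed by less than 1.5-fold, while 31 were over 2-fold higher (0.222% of the tested genes) and 52 over 2-fold lower (0.373%). Against a null of 1.5-fold (glmTreat) 0 genes were called, with 233 at an unadjusted p under 0.05. In 923 of the 946 the libraries of both groups did not overlap, and over all tested genes the ERK3-depleted libraries lay wholly above control in 15.8% and wholly below in 15.2%. The replicate numbers of the labels were taken to pair the libraries by a check on these same data, described under processing. With the number as a block the count was 1905 (1014 higher and 891 lower of 13939), 945 of the 946 among them. Block counts of lists below belong beside this larger background. All 946 had the same sign in 3 of 3 numbered pairs, a pattern that 27.0% of tested genes showed upward and 27.8% downward. The 946 were chosen by the difference between these same libraries. Neither the lack of overlap nor the shared sign is therefore separate support for the calls.

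The calls depend on single libraries. Without control library 2 or without ERK3-depleted library 1 the count was 0 (2263 and 2254 genes at an unadjusted p under 0.05, smallest adjusted p 0.099 and 0.077), without control library 3 it was 73, and without control library 1 it was 1101. On the first principal component (43.3% of the variance) control library 1 lay at -4.33, against -30.4 and -19.5 for the other controls and 9.44 to 27.9 for the ERK3-depleted libraries. Control library 1 was the control nearest to the ERK3-depleted mean in 720 of the 946 called genes, and control library 2 the farthest in 687. With library 1 of both lines left out, an alternative chosen after seeing the data, 184 genes were called. Each call below shares this limit. Of the 131 called genes that the naming rule picks 0 kept their call without control library 2 or without ERK3-depleted library 1. All 131 kept their sign under every alternative run, but these runs reuse libraries that chose the genes, so the kept sign is no separate support.

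**Figure D1:**
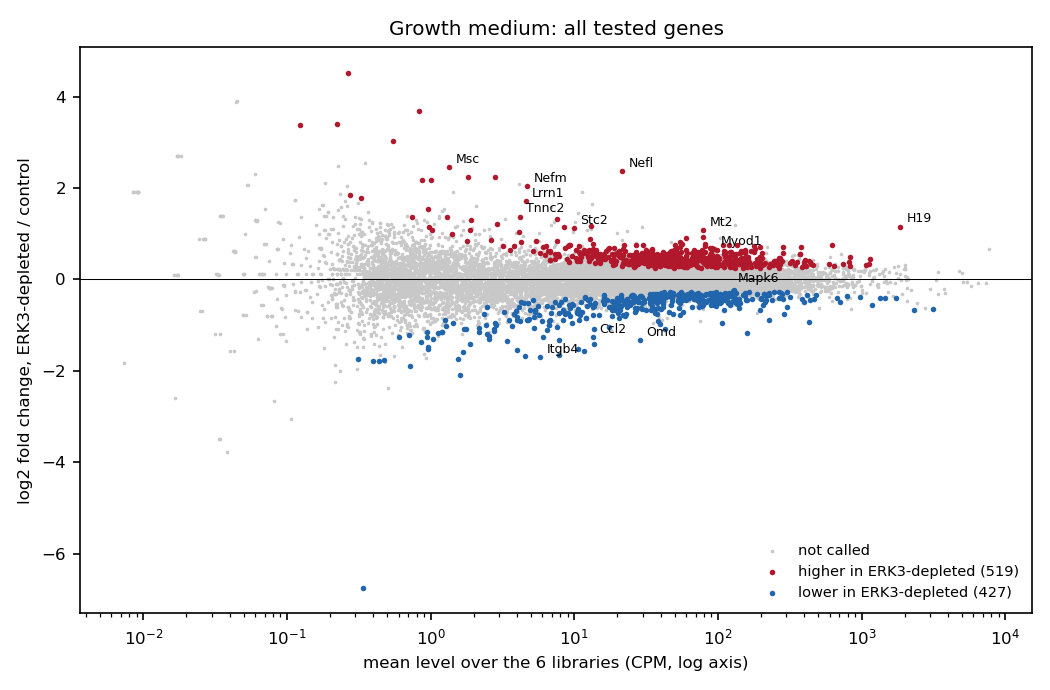
Fold change of every tested gene (y axis, log2 of ERK3-depleted over control in GM) against its mean level over the 6 libraries (x axis, CPM on a log axis). Red points are the 519 genes called higher, blue points the 427 called lower and grey points the rest; most called genes lie within 1 log2 unit of 0, and H19 and Nefl stand out among the higher ones.

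Mapk6 itself (chr9:75369062-75410005, minus strand, GENCODE M21 on GRCm38) was not called. Its transcript stood at 150.4, 119 and 124 CPM in control libraries 1, 2 and 3 and at 115, 105 and 133 in the ERK3-depleted ones. The groups overlap, and the ERK3-depleted library lay below the control of its number in pairs 1 and 2 and above it in the third (log2 fold change -0.15 ± 0.12, adjusted p = 0.464). The MK5-depleted GM libraries held 174, 142 and 175 CPM, and the ERK3 line differed from them by -0.48 (95% interval -0.73 to -0.22) on the log2 scale, which was not called (adjusted p = 0.362). A guide acts on DNA, so the RNA level does not measure the depletion of the protein, which the files used here do not hold. Mapkapk5, the gene for MK5, received about 1 CPM in these counts (0.96, 1.19 and 0.951 in control, 0.644, 0.666 and 0.877 in ERK3-depleted), without overlap, and was not called (log2 fold change -0.51 ± 0.28, adjusted p = 0.275). On the RSEM expected counts its log2 fold change had the opposite sign, 0.11.

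Of 24 genes for ERK3, related kinases and their partners 1 was called, beside 6.79% of all tested genes, so this list holds no excess of calls. The called gene was Ccnd3, the gene for cyclin D3, a known partner of ERK3. It stood at 132, 104 and 112 CPM in control and 159, 147 and 142 in ERK3-depleted libraries (log2 fold change 0.37 ± 0.09, adjusted p = 0.0262). All ERK3-depleted libraries lay above all controls. With the block 1 of the 24 was higher and 2 were lower, beside 1905 of 13939 called over all tested genes. Among 30 feedback and immediate early genes of the classical ERK pathway 1 was higher, beside 3.72% over all tested genes, and 0 were lower. The higher gene was the Ets factor Etv4 (log2 fold change 0.41 ± 0.11, adjusted p = 0.032), and with the block 2 genes of the list were higher. The list's median log2 fold change was -0.09, beside -0.01 over all tested genes.

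Promoter stretches of members of the 3 groups described next are shown because each group holds many called members and has a known control element. Replication genes are driven by E2F factors (here TTTCCCGC or TTTGGCGC), cholesterol synthesis genes by SREBP with NF-Y, which binds CCAAT, and amino acid stress genes by ATF4, which binds C/EBP-ATF composite sites (here TGATGNAA). Both strands of the 250 bases before the RefSeq start (GRCm38.p6) were searched for each motif by itself, and capitals mark the matches. The sequences run 5′ to 3′ on the gene's strand.
Asns (chr6:7693210-7693272, minus strand): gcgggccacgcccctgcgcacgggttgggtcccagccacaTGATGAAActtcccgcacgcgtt
Chac1 (chr2:119351009-119351096, plus strand): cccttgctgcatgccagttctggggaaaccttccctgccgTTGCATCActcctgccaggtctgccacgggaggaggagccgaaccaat
Slc7a11 (chr3:50443614-50443700, minus strand): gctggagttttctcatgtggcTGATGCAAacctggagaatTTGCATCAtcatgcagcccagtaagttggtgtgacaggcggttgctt
Mvd (chr8:122443423-122443489, minus strand): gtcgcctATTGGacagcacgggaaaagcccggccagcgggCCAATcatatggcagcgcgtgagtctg
Lss (chr10:76531503-76531587, plus strand): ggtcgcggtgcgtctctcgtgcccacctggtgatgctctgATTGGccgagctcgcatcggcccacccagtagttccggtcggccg
Dhcr7 (chr7:143830125-143830209, plus strand): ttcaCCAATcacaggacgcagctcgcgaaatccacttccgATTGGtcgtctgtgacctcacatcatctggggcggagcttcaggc
Mcm7 (chr5:138172001-138172088, minus strand): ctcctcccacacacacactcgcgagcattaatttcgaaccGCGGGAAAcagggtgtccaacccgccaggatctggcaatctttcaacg
Slc7a11 holds 2 ATF4-type matches in its stretch, one on each strand, and Mvd and Dhcr7 each hold 2 CCAAT boxes. The ATF4-type motif was found in 6 of 27 amino acid and stress genes with a promoter entry (22.2%), against 2.42% of the tested genes and 3.45% of all windows. Its other carriers, Atf3, Pycr1 and Nupr1, were not called. CCAAT was found in 14 of 15 cholesterol genes (93.3%) against 40.8% of tested genes and 33.9% of all windows, and the sterol element TCACNCCAC in 1 of 15 (6.67%, Hmgcs1), against 1.23% of tested genes and 1.05% of all windows. Of the CCAAT carriers Tm7sf2, Mvk, Ebp, Cyp51, Hmgcs1, Sc5d, Hsd17b7 and Idi1 were not called. An E2F motif of either form was found in 6 of 38 replication genes (15.8%) against 2.85% of tested genes and 1.3% of all windows, and of the 6 only Mcm7 was called. A match describes letters in this window and does not show that a factor bound there.

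Each of 9 roles in DNA replication had members that were higher in the ERK3-depleted line. Of 47 tested genes 30 were called higher and 0 lower (background 3.72% higher), the median log2 fold change was 0.47 beside -0.01 over all tested genes, and all 47 had a positive value. In 46 of 47 the ERK3-depleted library exceeded its same-numbered control in 3 of 3 pairs. With control library 3 left out 4 members were called, and with library 1 of both lines left out 11.

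In nucleotide supply 6 of 6 members were called. Rrm2, the regulated subunit of ribonucleotide reductase, stood at 286, 158 and 206 CPM in control and at 414, 295 and 356 in ERK3-depleted libraries. Within each number the ERK3-depleted library was the higher, while control library 1 came close to ERK3-depleted library 2 (log2 fold change 0.71 ± 0.19, adjusted p = 0.0315, 1.64-fold). Other members, the large subunit Rrm1 (0.47), thymidylate synthase Tyms (0.44), thymidine kinase Tk1 (0.51) and the dUTPase Dut (0.44), had log2 fold changes from 0.44 to 0.51.

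Origin licensing and its control had 4 of 6 members called. Mcm10, which joins helicase activation to polymerase loading, stood at 19.9, 12.1 and 18.8 CPM in control and 28.4, 24.2 and 27.8 in ERK3-depleted libraries (log2 fold change 0.67 ± 0.18, adjusted p = 0.0311). Gmnn, the gene for geminin, an inhibitor of licensing, stood at 38.8, 35 and 37.4 against 61.6, 56.1 and 50.9 (log2 fold change 0.60 ± 0.15, adjusted p = 0.0238). The groups do not overlap in either gene, and the licensing factor Cdt1 (0.58) was called in the same direction as its inhibitor. Of the 6 subunits of the Mcm2-7 helicase 3 were called, with Mcm3 at 101, 75.5 and 88 in control and 146, 122 and 136 in ERK3-depleted libraries (log2 fold change 0.61 ± 0.15, adjusted p = 0.0259); Mcm5 had a log2 fold change of 0.60 that was not called (adjusted p = 0.0524). Of 6 helicase activation genes 4 were called, Cdc45 and the GINS subunits Gins1, Gins2 and Gins4.

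At the fork, 4 of 9 polymerase and primase genes were called (Pola2, Prim1, Pold1 and Pold2) and 4 of 6 for the clamp and its loader, all of them small loader subunits (Rfc2, Rfc3, Rfc4 and Rfc5). Pcna, the clamp itself, had 0.49 and was not called (adjusted p = 0.236). Both genes of Okazaki fragment joining were called: the flap nuclease Fen1 stood at 63.6, 50.3 and 54.1 in control and 94.3, 77.3 and 80.6 in ERK3-depleted libraries (log2 fold change 0.59 ± 0.10, adjusted p = 0.00888), and Lig1 had 0.50. Chaf1b, a subunit of the chaperone that places histones behind the fork, stood at 29.1, 25 and 27.4 against 41.9, 41.9 and 43.1, with a narrow spread in both groups and no overlap (log2 fold change 0.64 ± 0.11, adjusted p = 0.0079). Slbp, which handles histone mRNA, had 0.12 and was not called (adjusted p = 0.697).

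Later cell cycle genes gave fewer calls. Of 40 mitosis genes 6 were higher and 0 lower, beside 3.72% higher over all tested genes. All 40 values were positive and the median was 0.42. With the replicate block 23 were called, beside 1014 of 13939 higher over all tested genes. Without control library 2 the median was 0.26. The centromere histone Cenpa stood at 103, 69.4 and 89.2 CPM in control and 152, 117 and 129.8 in ERK3-depleted libraries (log2 fold change 0.61 ± 0.14, adjusted p = 0.0184). The groups do not overlap. The others called were the chromosomal passenger genes Birc5 (0.59), Cdca8 (0.56) and Aurkb (0.49), the mitotic entry regulator Cdca3 (0.59) and the phosphatase Cdc25c (0.50). After library trends with gene length and GC content were taken out by offsets, 0 mitosis genes and 21 replication genes were called by edgeR, at medians of 0.44 and 0.43; with the block added the mitosis count was 30.

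Beside 3.72% higher over all tested genes, a share that also stands beside the chromatin genes below, of 21 G1 control genes 3 were higher and 0 lower (8 with the block). These were E2f1, which drives S phase genes (40.8, 40.4 and 38.9 CPM in control, 49.9, 50.9 and 51.1 in ERK3-depleted libraries, log2 fold change 0.34 ± 0.08, adjusted p = 0.0184), the kinase gene Cdk4 (log2 fold change 0.31 ± 0.07, adjusted p = 0.0157) and Cdkn2d, the gene for the Cdk4 inhibitor INK4d (log2 fold change 0.49 ± 0.11, adjusted p = 0.0184). E2f1 varied little within a group and the groups lay apart. Among 23 chromatin maintenance genes 5 were higher and 0 lower (9 with the block): the histone chaperones Nasp (0.60) and Asf1b (0.58), the architectural protein Hmga1 (0.65), Uhrf1, which maintains DNA methylation (0.54), and the histone variant H2afx (0.48).

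**Figure D2:**
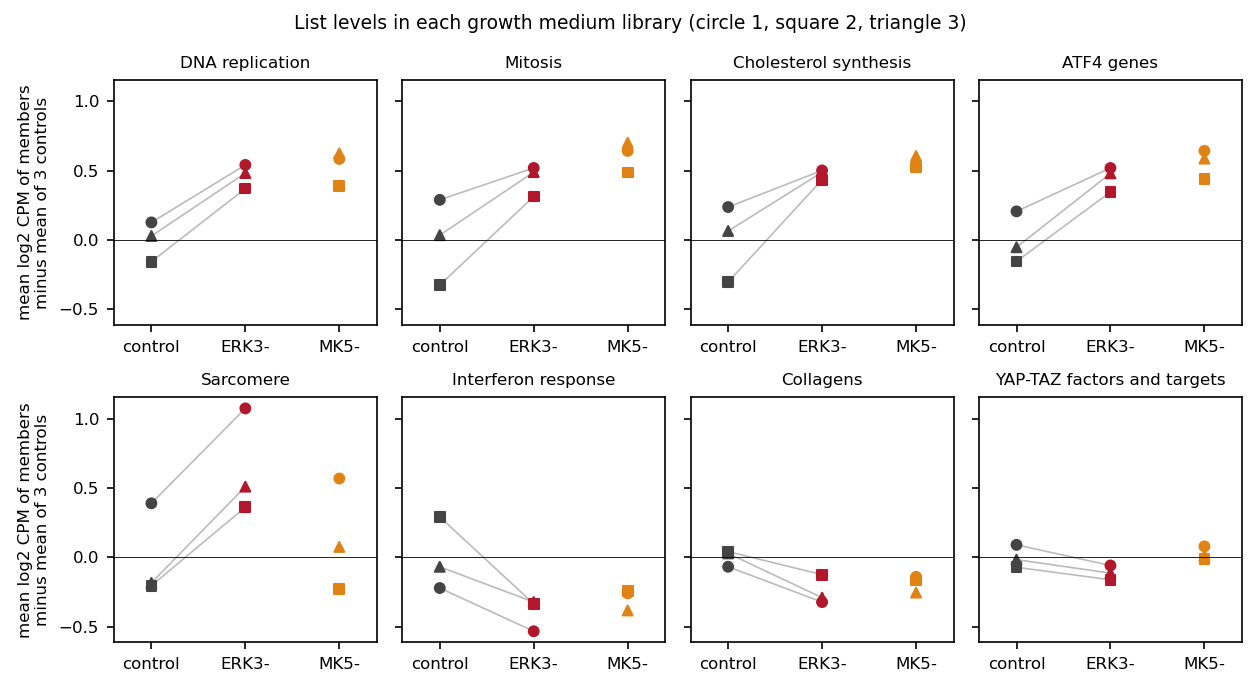
Mean log2 CPM of the members of 8 gene lists in each GM library, less the mean of the 3 control libraries (y axis, log2 units), for control (grey), ERK3-depleted (red) and MK5-depleted (orange) lines. Symbols give the library number (circle 1, square 2, triangle 3) and lines join control and ERK3-depleted libraries of 1 number; in the replication and cholesterol panels every ERK3-depleted library lies above every control library, and control library 2 lies lowest among controls in the 4 upper panels.

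Each stage of cholesterol synthesis had members that were higher in ERK3-depleted cells. Of 20 synthesis genes 10 were called higher and 0 lower, beside 3.72% higher over all tested genes. With the block 16 were higher, beside 1014 of 13939. All 20 values were positive and the median log2 fold change was 0.44. By stage, 4 of 8 genes up to farnesyl diphosphate were called (Acat2, Pmvk, Mvd and Fdps), 3 of 3 from squalene to lanosterol (Fdft1, Sqle and Lss) and 3 of 9 after it (Msmo1, Nsdhl and Dhcr7). Mvd, the decarboxylase that makes isopentenyl diphosphate, stood at 27.9, 16.8 and 22.8 CPM in control and 37, 37.3 and 38.9 in ERK3-depleted libraries (log2 fold change 0.75 ± 0.20, adjusted p = 0.0312). The ERK3-depleted libraries lay within a narrow range above a wide control range. Lss, the cyclase that forms lanosterol, stood at 62.2, 42.3 and 55.3 against 72.5, 79.2 and 84.8 (log2 fold change 0.57 ± 0.13, adjusted p = 0.0211), and Msmo1, an early demethylation enzyme, at 169.9, 109 and 144 against 246, 199.5 and 223 (log2 fold change 0.66 ± 0.16, adjusted p = 0.0216). Without control library 3 only 1 member was called, and without control library 2 the median was 0.30.

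Of 20 genes of sterol control and transport 2 were higher and 2 lower (5 and 2 with the block), beside 3.72% higher and 3.06% lower over all tested genes. Insig1, a brake on SREBP processing (69.4, 47.7 and 67.9 CPM in control, 98.3, 92.3 and 115 in ERK3-depleted libraries, log2 fold change 0.73 ± 0.12, adjusted p = 0.0079) and itself an SREBP target, was higher. The lower ones were the cholesterol exporter gene Abcg1, an LXR target (6.72, 12.9 and 11.1 against 4.18, 5.99 and 4.71, log2 fold change -1.05 ± 0.31, adjusted p = 0.0469), and the VLDL receptor gene Vldlr, at 1.05 CPM or less (log2 fold change -1.21 ± 0.36, adjusted p = 0.0483). The groups do not overlap in any of these 3 genes. Of 16 fatty acid synthesis genes 0 were called by edgeR (7 at an unadjusted p under 0.05; 1 higher by DESeq2; 0 by limma-voom; 3 higher with the block; 4 higher without the low-count filter), and the desaturase Fads1 came nearest by p (log2 fold change 0.31 ± 0.10, adjusted p = 0.068; with the block adjusted p = 0.0264).

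Of 31 tested genes of the ATF4 response to amino acid shortage 13 were called higher and 0 lower, with a median log2 fold change of 0.39, beside 3.72% higher over all tested genes. All 5 serine and one-carbon genes were called: Phgdh, the first enzyme of serine synthesis, stood at 53.6, 30.8 and 41.2 CPM in control and 90.8, 64.2 and 79.4 in ERK3-depleted libraries (log2 fold change 0.90 ± 0.19, adjusted p = 0.0168). Mthfd2, a mitochondrial folate enzyme, stood at 80.5, 44.1 and 54.6 against 117, 85.5 and 105 (log2 fold change 0.78 ± 0.18, adjusted p = 0.0198), and Shmt2 at 113, 69.4 and 85.1 against 166, 128 and 154 (log2 fold change 0.75 ± 0.16, adjusted p = 0.0155). In each of these genes control library 1 was the highest control and ERK3-depleted library 2 the lowest of its group, and the groups did not overlap. Psat1 had 0.72 and Psph 0.54.

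Asns, asparagine synthetase, whose promoter site is shown above, stood at 76.8, 37.2 and 48.9 CPM in control and 122, 83.7 and 102 in ERK3-depleted libraries (log2 fold change 0.92 ± 0.20, adjusted p = 0.0183). Of 8 transporter genes 3 were called: the cystine transporter Slc7a11 (1.33, 0.922 and 1.1 against 3.33, 2.51 and 2.36, log2 fold change 1.29 ± 0.33, adjusted p = 0.0271), the leucine transporter Slc7a5 (109, 57.6 and 75 against 143, 120.5 and 146, log2 fold change 0.76 ± 0.20, adjusted p = 0.0312) and the glycine transporter Slc6a9 (0.46). Slc7a11 was low in all libraries and all ERK3-depleted values lay above all control values. Of 14 factors and effectors 4 were called, Atf4 itself (0.37), Atf5 (0.58), the glutathione-degrading enzyme Chac1 (0.74) and the translation brake Eif4ebp1 (0.44). Ddit3 (0.38) and Trib3 (0.85), which also respond to ATF4, were not called (adjusted p = 0.211 and 0.0793). Stc2, a secreted glycoprotein induced by the unfolded protein response, lies outside this list. It was among the 10 largest rises by the naming rule (11, 3.69 and 4.31 against 14.4, 12.5 and 14.1, log2 fold change 1.12 ± 0.29, adjusted p = 0.0287).

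Of 20 cytosolic tRNA synthetases 7 were higher and 0 lower (11 with the block), beside 3.72% higher over all tested genes. They were led by the alanine enzyme Aars (167, 107 and 132 CPM in control, 187, 181 and 204 in ERK3-depleted libraries, log2 fold change 0.50 ± 0.12, adjusted p = 0.0211) and the cysteine enzyme Cars (0.42). Endoplasmic reticulum chaperones gave 0 calls in 24 genes by edgeR (6 at an unadjusted p under 0.05; 1 higher and 1 lower by DESeq2; 1 lower by limma-voom; 2 higher and 1 lower with the block; 0 without the low-count filter) and a median of 0.03, and the stress sensor Ern1 came nearest by p (log2 fold change -0.35 ± 0.10, adjusted p = 0.0522; with the block adjusted p = 0.0298). Without control library 3 neither the ATF4 list nor the synthetases had a called member.

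Myod1 (chr7:46376474-46379099, plus strand) was higher in the ERK3-depleted line. The control libraries held 89.1, 60.8 and 68.8 CPM and the depleted libraries 116, 104 and 125, a 1.58-fold rise (log2 fold change 0.66 ± 0.13, adjusted p = 0.0123). Every ERK3-depleted library lay above every control library. On the scale that allows for length the means were 47.8 ± 9.86 TPM in control and 71.8 ± 10.3 in ERK3-depleted cells (± SD, n = 3). Of 16 myogenic activators it was the 1 called higher, and Eya1, a cofactor of homeodomain factors, the 1 called lower (35.8, 41.3 and 41.6 against 26.4, 30.6 and 32.2, log2 fold change -0.41 ± 0.11, adjusted p = 0.0341; 2 and 2 with the block). Over all tested genes 3.72% were higher and 3.06% lower. Myog, the factor that starts terminal differentiation, had 22.2, 10.1 and 13.5 CPM in control and 42.9, 26.3 and 25.9 in ERK3-depleted libraries, without overlap, and was not called (1.06, adjusted p = 0.0804). Myf5 had -0.12 and Pax7 -0.08, and neither was called.

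Some inhibitors of MyoD were higher as well. Of 18 tested repressors of the myogenic program 5 were called higher and 0 lower, with a median of -0.03, beside 3.72% higher over all tested genes. Id1, which sequesters the E protein partners of MyoD, stood at 38.8, 37.9 and 41.2 CPM in control and at 72.5, 55.9 and 60.1 in ERK3-depleted libraries, 1.6-fold higher (log2 fold change 0.68 ± 0.10, adjusted p = 0.0079). Id2, a relative that acts the same way, stood at 42.5, 32.1 and 37.9 against 75.3, 46.7 and 68.7 CPM, 1.7-fold higher (log2 fold change 0.76 ± 0.15, adjusted p = 0.0138). Msc, the gene for musculin, a bHLH repressor that competes with MyoD, rose from 0.693, 0.395 and 0.15 to 2.31, 1.79 and 2.74 CPM (log2 fold change 2.46 ± 0.49, adjusted p = 0.0129). Its control level is near the floor of detection, so the 5.51-fold value is uncertain in size, but the groups do not overlap. Hey1 (1.81, 1.27 and 2.15 against 4.77, 3.07 and 4.22, log2 fold change 1.21 ± 0.27, adjusted p = 0.0176) and Hes1 (43, 29 and 32.9 against 62.9, 47.1 and 43.6, log2 fold change 0.55 ± 0.13, adjusted p = 0.0227), both Notch effectors, completed the called members. The Notch pathway list itself had 0 calls in 18 genes by edgeR (5 at an unadjusted p under 0.05; 2 lower by DESeq2; 0 by limma-voom; 2 lower with the block; 0 without the low-count filter). Its member nearest by p, Maml3, had -0.31 (adjusted p = 0.0583; called with the block, adjusted p = 0.018).

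**Figure D3:**
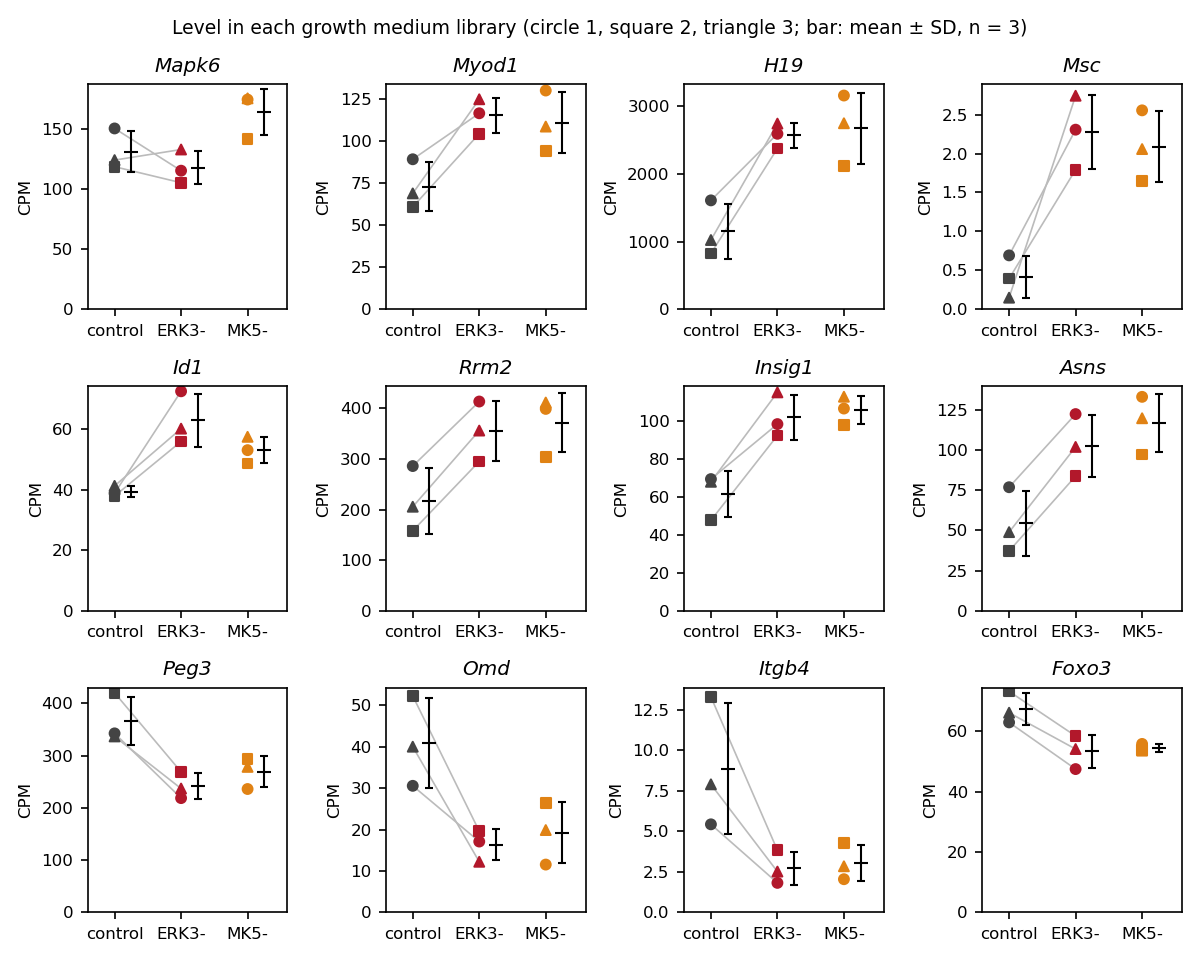
Level of 12 genes in each GM library (y axis, CPM from 0) for the control (grey), ERK3-depleted (red) and MK5-depleted (orange) lines. Circles, squares and triangles are libraries 1, 2 and 3, lines join control and ERK3-depleted libraries of 1 number, and bars give mean ± SD (n = 3); Mapk6 overlaps between control and ERK3-depleted libraries, and the other genes do not.

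Of 45 tested sarcomere genes 5 were called higher and 0 lower, against 3.72% called higher over all tested genes. With the block 17 of 45 were higher and 1 lower, against 1014 of 13939 higher over all. Of the 45 genes 41 had a positive value and the median log2 fold change was 0.75. Tnnc2, fast troponin C, stood at 3.2, 1.84 and 2 CPM in control and 7.62, 5.94 and 4.49 in ERK3-depleted libraries (log2 fold change 1.37 ± 0.33, adjusted p = 0.0239). Tmod1, which caps actin filaments, stood at 3.73, 2.06 and 2.45 against 6.01, 5.02 and 5.64 (log2 fold change 1.03 ± 0.22, adjusted p = 0.0155), and desmin (Des), the intermediate filament of myoblasts as well as muscle, at 1048, 954 and 929.6 against 1414, 1276 and 1285 (log2 fold change 0.44 ± 0.09, adjusted p = 0.0159). The groups do not overlap in these genes. Embryonic myosin Myh3, 8.21, 4.52 and 5.46 CPM in control and 20.9, 12 and 10.1 in ERK3-depleted libraries, was not called (1.25, adjusted p = 0.0925). Library 1 was the highest of its line in both lines for Myog, Myh3 and Tnnc2, and without ERK3-depleted library 1 the list's median was 0.48. The summed differentiated muscle markers stood at 151 to 261 CPM against 74.8 to 131 in control, with each of the 9 at a mean above 1 CPM, and their part in the result was not tested.

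The muscle acetylcholine receptor genes Chrnd (13.8, 7.42 and 8.91 CPM in control, 18.4, 14.6 and 18.4 in ERK3-depleted libraries, log2 fold change 0.78 ± 0.21, adjusted p = 0.0361) and Chrnb1 (37.8, 24.2 and 29.8 against 45.8, 44.3 and 43.9, log2 fold change 0.55 ± 0.12, adjusted p = 0.0178) were the 2 called higher among 27 genes of calcium handling and excitation (5 with the block), beside 3.72% higher and 3.06% lower over all tested genes. The 1 called lower was Scn7a, an atypical sodium channel, at 7.63, 15.3 and 12.5 in control and 3.38, 4.76 and 3.18 in ERK3-depleted libraries (log2 fold change -1.65 ± 0.26, adjusted p = 0.0079). All its ERK3-depleted values lay below all control values. Of 21 fusion and adhesion genes Cdh15, the gene for M-cadherin, was higher (157, 96 and 109 against 202, 164 and 202, log2 fold change 0.65 ± 0.15, adjusted p = 0.0211) and the small GTPase gene Rnd3 lower (160.4, 188 and 173 against 128, 148 and 130.2, log2 fold change -0.36 ± 0.09, adjusted p = 0.0232). Of 14 satellite and reserve cell genes Cd34, a marker of quiescent satellite cells, was the 1 called lower (56.7, 71.6 and 67 against 35.7, 49.4 and 42.1, log2 fold change -0.62 ± 0.13, adjusted p = 0.0158), and 0 were higher (3 lower and 1 higher with the block). The shares of 3.72% higher and 3.06% lower also stand beside the fusion and satellite lists. At 1 or 2 calls in a direction, none of these lists is read as a result about its members.

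Matrix genes were lower where called, with exceptions. Of 8 small leucine-rich proteoglycans 3 were lower and 0 higher, with a median of -0.50, beside 3.06% lower over all tested genes. The count was 0 on RSEM expected counts and with length and GC offsets, at medians of -0.49 and -0.40. By limma-voom 2 were lower, and 4 by DESeq2 and with the block. Ogn (osteoglycin) stood at 2418, 3187 and 2974 CPM in control and 1816, 1722 and 1889 in ERK3-depleted libraries (log2 fold change -0.66 ± 0.19, adjusted p = 0.0467). Omd (osteomodulin) stood at 30.6, 52.3 and 40 against 17.1, 19.6 and 12.2 (log2 fold change -1.33 ± 0.36, adjusted p = 0.036) and decorin (Dcn) at 7.09, 13.8 and 12.9 against 4.5, 5.84 and 3.23 (log2 fold change -1.32 ± 0.36, adjusted p = 0.0393). The groups do not overlap in these genes. Of 22 collagens 2 were lower and 0 higher, beside 3.06% lower over all tested genes. With the block 8 were lower, beside 891 of 13939. The 2 were the basement membrane collagen Col18a1 (318, 421 and 343 against 182, 241 and 216, log2 fold change -0.76 ± 0.13, adjusted p = 0.00888) and the fibril-associated Col12a1 (-0.50). Col1a1 had 0.23 and Col3a1 -0.30, and neither was called. Of the 9 tested fibroblast markers, Dcn among them, 4 were lower as well (above), with a median of -0.43 and a summed level that overlapped between the lines (1095 to 1131 against 1041 to 1159 CPM). Thy1, Lum and Clec3b lay below 1 CPM. Their part in the result was not tested.

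Of 34 other matrix and crosslinking genes 5 were lower and 2 higher (8 and 4 with the block). Over all tested genes 3.06% were lower and 3.72% higher, shares that also stand beside the integrins below. The lower ones included Thbs1, thrombospondin 1 (4505, 3342 and 3573 CPM in control, 2651, 2524 and 2162 in ERK3-depleted libraries, log2 fold change -0.64 ± 0.15, adjusted p = 0.0211), and the metalloproteinase inhibitor Timp3 (292, 266 and 268 against 184, 213 and 212, log2 fold change -0.44 ± 0.10, adjusted p = 0.018). The higher ones were its relative Timp1 (302, 295 and 267 against 548, 425 and 434, log2 fold change 0.70 ± 0.13, adjusted p = 0.0109) and periostin, Postn (123, 81.3 and 100.1 against 183, 142 and 190.0, log2 fold change 0.76 ± 0.19, adjusted p = 0.0271). The 2 inhibitors of 1 family thus moved in opposite directions, each without overlap between groups. Of 15 integrins 2 were lower: Itgb4, the hemidesmosome subunit and the largest fall by the naming rule, at 5.44, 13.3 and 7.91 against 1.82, 3.84 and 2.52 (log2 fold change -1.70 ± 0.33, adjusted p = 0.0109), and Itgb3 (-0.32).

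Of 21 genes for YAP and TAZ, their partners and their targets 5 were lower and 2 higher, beside 3.06% lower and 3.72% higher over all tested genes. The lower ones were the DNA-binding partner Tead1 (137, 145 and 131 CPM in control, 88, 90.6 and 112 in ERK3-depleted libraries, log2 fold change -0.51 ± 0.12, adjusted p = 0.023), Wwtr1, the gene for TAZ itself (-0.31), the cofactor Vgll3 (-0.37), Amotl2 (-0.27) and Crim1 (-0.46). Ccn2, a classical target, was higher (185, 133 and 129.5 against 285, 178 and 263, log2 fold change 0.70 ± 0.20, adjusted p = 0.0476), as was Vgll2, at 1.5 CPM or less (log2 fold change 1.36 ± 0.40, adjusted p = 0.0476). Control library 1 lay above ERK3-depleted library 2 for Ccn2, so the groups overlap. Of 20 actin and smooth muscle genes 2 were lower (4 with the block), vinculin (Vcl, 498, 530.1 and 484 against 370.4, 366 and 371, log2 fold change -0.45 ± 0.09, adjusted p = 0.0109) and Lmod1 (-0.63). In the TGF-beta and BMP list of 36 genes 3 were lower, the BMP antagonist Grem1 (224, 397 and 267 against 155, 155 and 167, log2 fold change -0.90 ± 0.25, adjusted p = 0.0411), Smad3 (-0.41) and Tgfbr2 (-0.32), and 1 was higher, Nog, the gene for the BMP antagonist noggin, at 2.36 CPM or less (log2 fold change 1.38 ± 0.40, adjusted p = 0.0466). With length and GC offsets 0 genes of this list were called. The shares of 3.06% lower and 3.72% higher over all tested genes also stand beside the actin and the TGF-beta counts.

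Of 39 interferon response genes 4 were called lower and 0 higher, beside 3.06% lower over all tested genes. With the block 8 were lower, beside 891 of 13939. A negative value was seen in 38 of the 39, and the median log2 fold change was -0.45. The RNA sensor Ddx58 (RIG-I) stood at 29.5, 38.5 and 31.5 CPM in control and 16.5, 23.8 and 22.8 in ERK3-depleted libraries (log2 fold change -0.66 ± 0.13, adjusted p = 0.0131). The guanylate-binding protein gene Gbp2 stood at 9.71, 16.9 and 11.5 against 5.79, 7.17 and 6.8 (log2 fold change -0.95 ± 0.20, adjusted p = 0.0155). Both are without overlap, with control library 2 the highest. The partner genes Dtx3l (-0.52) and Parp9 (-0.48) were the other calls. Without control library 2 the median was -0.21. Isg15 had -0.19 and was not called.

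Of 25 cytokine and NF-kB genes 2 were lower (4 with the block) and 0 higher: the monocyte chemokine Ccl2 (10.9, 28.6 and 17.3 CPM in control, 8.15, 7.73 and 7.78 in ERK3-depleted libraries, log2 fold change -1.27 ± 0.26, adjusted p = 0.014) and the NF-kB inhibitor Tnfaip3 (-0.53). Of 25 p53 targets 3 were lower and 0 higher, Trp53inp1 (65, 72.2 and 70.9 against 42.4, 33 and 45.5, log2 fold change -0.78 ± 0.17, adjusted p = 0.0174), the receptor Eda2r (-0.58) and the translesion polymerase Polk (-0.50). In these 3 genes the groups lay apart. Beside both lists of this paragraph, 3.06% of all tested genes were called lower.

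Foxo3 fell with 4 genes of its list. Of 28 FoxO factors and targets 5 were lower and 1 higher, beside 3.06% lower and 3.72% higher over all tested genes. Foxo3 stood at 62.9, 73.2 and 66.1 CPM in control and 47.5, 58.4 and 54.1 in ERK3-depleted libraries (log2 fold change -0.34 ± 0.09, adjusted p = 0.0315, 1.26-fold lower). The sestrin genes Sesn3 (89.6, 96.8 and 93.1 against 56.2, 64.4 and 65.8, log2 fold change -0.59 ± 0.12, adjusted p = 0.014) and Sesn1 (-0.34), stress proteins that restrain mTORC1, the autophagy kinase Ulk2 (-0.32) and the repressor Bcl6 (-0.35) were the others. The higher one was Sod2, mitochondrial superoxide dismutase (60.1, 57.7 and 59.9 against 84.2, 74.3 and 72.5, log2 fold change 0.38 ± 0.09, adjusted p = 0.0207). The atrophy ligase genes Fbxo32 (-0.27) and Trim63 (0.04) and the apoptosis gene Bcl2l11 (-0.23) were not called. For Foxo3 the groups do not overlap. With length and GC offsets 2 of the 28 genes were called lower and 1 higher.

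H19 (chr7:142575529-142578143, minus strand) is a maternally expressed long non-coding RNA that is abundant in myoblasts and hosts a microRNA. It was among the 10 largest rises by the naming rule. The control libraries held 1608, 826 and 1023 CPM and the depleted libraries 2590, 2373 and 2740, a 2.23-fold rise (log2 fold change 1.16 ± 0.18, adjusted p = 0.0079). The control libraries spread over a wide range, the ERK3-depleted ones lay close together, and the groups do not overlap. The means were 724 ± 260.5 TPM in control and 1555 ± 161 in ERK3-depleted cells. Among 16 tested imprinted genes it was the 1 called higher, and Peg3, a paternally expressed zinc-finger gene, the 1 called lower (343, 420.3 and 337 against 219, 269 and 237 CPM, log2 fold change -0.60 ± 0.16, adjusted p = 0.0358). Over all tested genes 3.72% were called higher and 3.06% lower, so single calls are not read as a result about imprinted genes. In the insulin-like growth factor system of 17 genes 1 was called (1 higher and 1 lower with the block), the binding protein gene Igfbp2, higher in every ERK3-depleted library (546, 429.7 and 425 against 876, 732 and 754, log2 fold change 0.75 ± 0.16, adjusted p = 0.0166). Beside the 6.79% called over all tested genes, this list holds no excess of calls. With length and GC offsets 0 of its genes were called.

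The largest rises by the naming rule included genes of neurons. The neurofilament genes Nefl (13.6, 3.73 and 3.96 CPM in control, 44.3, 18.6 and 45.5 in ERK3-depleted libraries, log2 fold change 2.37 ± 0.62, adjusted p = 0.0347) and Nefm (4.27, 0.395 and 1.0 against 8.96, 5.99 and 7.62, log2 fold change 2.04 ± 0.59, adjusted p = 0.0495) were followed by Lrrn1, a leucine-rich repeat membrane protein (3.52, 1.14 and 1.85 against 8.26, 4.81 and 8, log2 fold change 1.72 ± 0.50, adjusted p = 0.0496). Control library 1 held the highest control value of each. Of 21 neuronal cytoskeleton genes 3 were higher and 1 lower (5 and 2 with the block), beside 3.72% higher and 3.06% lower over all tested genes. The third rise was the tubulin regulator Stmn1 (0.48) and the fall Dpysl3 (1308, 1531 and 1411 against 821, 1090 and 962, log2 fold change -0.57 ± 0.13, adjusted p = 0.0184). Of 9 neuron and glia markers 8 lay below 1 CPM. Metallothionein Mt2, which binds zinc, stood at 69.3, 22.5 and 59.9 against 110.4, 108 and 102 (log2 fold change 1.09 ± 0.30, adjusted p = 0.038; not called with the block, adjusted p = 0.0599).

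The other large falls by the naming rule included genes for membrane and secreted proteins. Enpp2, the gene for autotaxin, which makes lysophosphatidic acid, stood at 13.2, 23 and 16.3 CPM in control and 4.45, 9.47 and 3.67 in ERK3-depleted libraries (log2 fold change -1.57 ± 0.36, adjusted p = 0.0211). The cartilage matrix gene Cilp stood at 4.59, 8.87 and 7.16 against 1.82, 3.17 and 1.48 (log2 fold change -1.67 ± 0.44, adjusted p = 0.0344), and the cadherin-related gene Cdhr1 at 12.3, 18.7 and 16.2 against 4.02, 7.42 and 4.93 (log2 fold change -1.52 ± 0.27, adjusted p = 0.00952). In all 3 the ERK3-depleted libraries lay below every control library. The G protein regulator Rgs17 (-1.55) and the monocarboxylate transporter family member Slc16a4 (-1.27) made up the 10 with the integrin, channel, proteoglycan and chemokine genes above.

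Of 38 ribosome biogenesis genes 8 were higher and 0 lower (16 with the block), beside 3.72% higher and 3.06% lower over all tested genes. They were led by Nhp2 (46.3, 38.3 and 40.2 CPM in control, 85.6, 64 and 65 in ERK3-depleted libraries, log2 fold change 0.78 ± 0.13, adjusted p = 0.0079) and Nop10 (0.48), both subunits of the H/ACA particle that guides pseudouridylation. The 77 cytoplasmic ribosomal protein genes, which have many near-identical copies, had 1 call (Rpl28, 0.45; 4 with the block) and a median of 0.19, which turned to -0.04 with length and GC trends removed. Among 33 glycolysis and hypoxia genes Ldha (0.33) and Tpi1 (0.33) were the 2 called, both higher (4 with the block). Of 29 antioxidant genes 3 were higher (6 with the block), among them heme oxygenase Hmox1 (0.33), and 1 lower, the extracellular dismutase Sod3 (21.3, 34.2 and 23.8 against 13.4, 16.8 and 14.1, log2 fold change -0.84 ± 0.18, adjusted p = 0.0169; 3 lower with the block). The lysosomal lipase Lipa (-0.40) was the 1 called, lower, of 25 autophagy and lysosome genes (2 lower and 1 higher with the block), and Snhg15 (0.58) the 1 called, higher, of 11 small nucleolar RNA hosts. Beside 3.72% higher and 3.06% lower over all tested genes, the few calls among ribosomal protein, glycolysis, antioxidant, lysosome and host genes are not read as list results. Wnt pathway genes had 0 calls in 34 by edgeR (4 at an unadjusted p under 0.05; 2 lower by DESeq2; 0 by limma-voom; 2 lower with the block; 2 lower without the low-count filter). The 7 tested genes of the mitochondrial genome gave 0 calls by edgeR (0 at an unadjusted p under 0.05; 0 by DESeq2; 0 by limma-voom; 0 with the block; 7 lower without the low-count filter) at a median of -0.48, mt-Nd5 with 1124, 1128 and 823 against 665, 736 and 574 (log2 fold change -0.64 ± 0.38, adjusted p = 0.33).

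**Figure D4:**
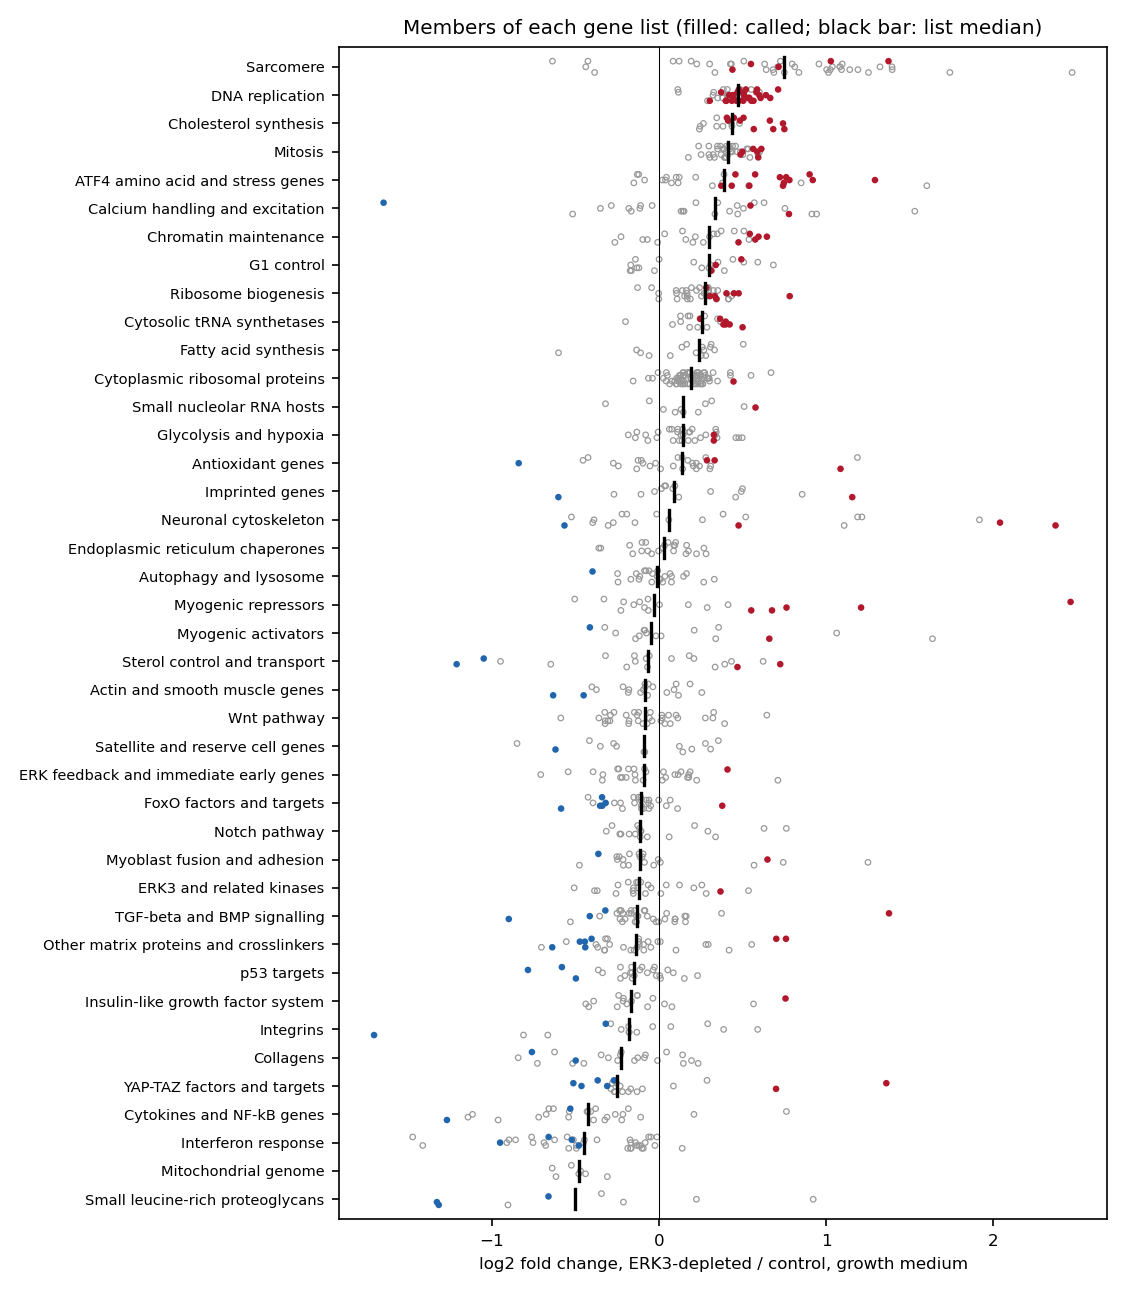
Log2 fold changes (x axis, ERK3-depleted over control in GM) of the tested members of each gene list (rows, ordered by median). Filled red and blue points are members called higher and lower, open circles are members not called and black bars are list medians; DNA replication holds 30 called members, all to the right of 0.

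Set against the MK5-depleted line in the same medium, a contrast that holds no control library, the ERK3-depleted line gave 0 called genes of 13939 by edgeR (0%), with 1167 at an unadjusted p under 0.05 and a smallest adjusted p of 0.362. Gene filter, scaling and spread came from the fit over all 18 libraries, controls included. Fitted to the GM libraries of both depleted lines alone, edgeR called 0 of 13003 genes (smallest adjusted p 0.213). Over all 18 libraries DESeq2 called 11. The median size of the log2 difference over the named genes was 0.117. For H19 it was -0.06 (95% interval -0.42 to 0.31), for Myod1 0.05 (95% interval -0.21 to 0.33), for Rrm2 -0.07 (95% interval -0.46 to 0.33) and for Insig1 -0.05 (95% interval -0.30 to 0.20). These intervals bound the difference and do not show that both depletions act alike.

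The 11 genes that DESeq2 called between the depleted lines lie outside the naming rule but for Serpine2 and were chosen after their values were seen. Those higher in ERK3-depleted cells were Mymx, a fusion micropeptide of muscle (1.11 ± 0.27, DESeq2 adjusted p = 0.0498), Igfbp4 (1.01 ± 0.21, 0.0115), Nsg1, Mrps17 and the protease inhibitor Serpine2 (0.54 ± 0.13, 0.0498). Those lower were the cyclin gene Ccnd2 (-0.57 ± 0.14, 0.0498), the Ras inhibitor gene Nf1, Trip11, Xrn1, Epg5 and Lrrc75b. Serpine2 was lowest in the MK5-depleted line (28.3, 30 and 24.4 CPM), intermediate in the ERK3-depleted line (38.8, 45 and 36.4) and highest in control (50.6, 63.6 and 52.6). Ccn2 was higher in every MK5-depleted library (412, 302 and 391 CPM) than in the ERK3-depleted ones (285, 178 and 263), with a difference of -0.61 (95% interval -1.03 to -0.18) that was not called (adjusted p = 0.476). For Tead1 the values were 88, 90.6 and 112 against 131, 119 and 136, a difference of -0.41 (95% interval -0.67 to -0.15) with adjusted p = 0.411, and for Tnnc2 7.62, 5.94 and 4.49 against 5.19, 1.7 and 3.06, a difference of 0.83 (95% interval 0.18 to 1.49) with adjusted p = 0.506. On RSEM expected counts 1 gene was called, Mapkapk5 (0.78 ± 0.07, adjusted p = 2.73e-05).

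Both depleted lines were compared with the same 3 control libraries, so their fold changes share that error and are given side by side only. Against control, the MK5-depleted line had log2 fold changes of 1.21 for H19, 0.61 for Myod1, 0.78 for Rrm2, 1.10 for Asns and -1.55 for Itgb4. The ERK3-depleted line had 1.16, 0.66, 0.71, 0.92 and -1.70. List medians (ERK3-depleted, then MK5-depleted) were 0.47 and 0.55 for replication and 0.42 and 0.59 for mitosis. They were 0.44 and 0.53 for cholesterol synthesis, 0.75 and 0.15 for sarcomere and -0.25 and -0.10 for YAP-TAZ genes. Of 47 replication genes 30 and 39 were called and of 40 mitosis genes 6 and 21, beside 946 and 1178 of all 13939. By edgeR 0 members of these lists were called between the depleted lines.

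The effect of ERK3 depletion differed between GM and DM2 in 3983 of 13939 genes (28.6%) by the interaction test. Of the 946 genes called in GM 202 (21.4%) had such a difference. The GM effect that chose these genes is also subtracted in the difference, which favours differences that run against the GM change, so their direction is given as a description. H19 was 2.23-fold higher in GM and had 0.43 at DM2, where the libraries held 4068, 4278 and 3847 CPM in control and 5390, 5224 and 5839 in ERK3-depleted cells (difference -0.72 ± 0.25, adjusted p = 0.0356). Myod1 had -0.12 at DM2 (difference -0.78 ± 0.18, adjusted p = 0.00632). Differences of over 1 log2 unit of this sign were seen in Insig1, from 0.73 to -0.57, and Id2, from 0.76 to -0.51. In the ATF4 group Asns went from 0.92 to -0.22, Phgdh from 0.90 to -0.24 and Slc7a5 from 0.76 to -0.26. Rrm2 went from 0.71 to -0.25, while H2afx and Stmn1 were higher in both media, and more so at DM2 (1.11 and 1.21). Peg3, lower in GM, had 0.45 at DM2. The share of reads outside genes ran from 2.4 to 3.07% in the 6 GM libraries and up to 7.73% over all 18, and with it as a covariate 200 genes had a called difference.

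**Figure D5:**
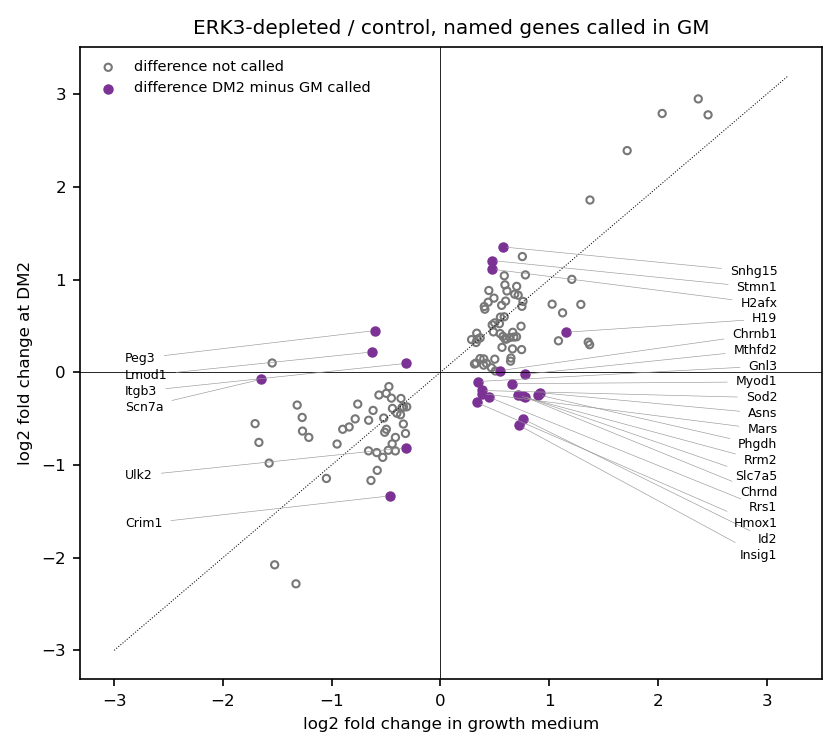
Log2 fold change of ERK3-depleted over control cells in GM (x axis) and at DM2 (y axis) for the 131 genes that the naming rule picks and that were called in GM. Purple labelled points are genes whose effect differs between the media by the interaction test and grey circles the others; the dotted line marks equal effects, and Peg3, Myod1 and Insig1 lie on the opposite side of 0 at DM2.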

How the data were processed

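Poly-A RNA was sequenced as stranded libraries from C2C12 cells, and 6 of the 18 libraries enter the comparison described above. Per the submitters' processing notes the tools named are bcl2fastq 2.17, STAR 2.5.1b and RSEM 1.2.28, with GRCm38. The authors deposited raw read counts per gene and library, without regard to strand and for each strand, and the reverse-strand column was used because it held 93.1 to 95.3% of stranded gene counts. The authors also deposited RSEM expected counts, rounded here to whole numbers, and TPM values, tested as log2(TPM + 1). Summary lines (24.4 to 27.8% of reads, of which multimapping reads 17.1 to 18.8% of reads) stayed out of library sizes. Of 50600 gene IDs 50376 matched the GENCODE M21 annotation, which may not be the release the authors counted with.

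Counts were tested with edgeR 4.0.16 (filterByExpr, TMM, robust quasi-likelihood, 1 model of 6 groups) in R 4.3.3, with limma 3.58.1 and DESeq2 1.42.0 as alternatives, beside other scalings, filters, units, covariates and left-out libraries. Fold changes are log2 of ERK3-depleted over control from the fit, errors are standard errors, and intervals are 95%. The scripts were tested on simulated data. Same-numbered control and ERK3-depleted GM libraries deviated together (correlations 0.183, 0.29 and 0.155, other pairs -0.189 to 0.01). The numbers were therefore taken to pair the libraries on the data alone, and the block counts rest on this reading. Deviations from a mean of 3 libraries cancel out, so agreement of same-numbered ones pushes the other pairs below 0. Between GM and DM2, same-numbered libraries correlated at 0.172, -0.021 and 0.024 in control and 0.156, 0.291 and 0.29 in the ERK3-depleted line. The MK5-depleted line was not checked this way, although the block was fitted over all 18 libraries. Replicates differed by 8.33 to 17.0 times their counting variance, so none repeats another.

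Named genes are Mapk6, Mapkapk5, Foxo3, Myod1 and H19, the 10 largest called changes each way (no overlap between groups, at least 5 CPM on average in whichever group is higher, no clone names), and up to 6 called members of each list with the largest change, or the member with the smallest p where none was called. Other list members are given as counts or single values, and a few genes the rule names are not reported here. Members, lists and tests were chosen with earlier results of these data known. With 3 libraries against 3, an exact permutation test of a single gene cannot go below p = 0.1.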

Additional observations from a re-analysis of the deposited data

Results flagged for a closer look

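In 29 of the 138 genes that the naming rule picks, a smaller share than the 28.6% of all tested genes, the effect of ERK3 depletion differed between DM2 and GM by the interaction test, with adjusted p from 0.000763 to 0.0356. Each value below is the log2 effect at DM2 minus the log2 effect in GM. Most of these genes were picked for their GM effect, which favours differences that run against it.

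The effect was smaller or of the other sign at DM2 in genes that were higher in GM: among myogenic genes Myod1 -0.78, Id2 -1.27, Chrnd -1.04 and Chrnb1 -0.53, among ATF4 and synthetase genes Asns -1.14, Phgdh -1.15, Mthfd2 -0.80, Slc7a5 -1.02 and Mars -0.62, and in H19 -0.72, Rrm2 -0.96, Insig1 -1.30, Sod2 -0.57, Rrs1 -0.72, Gnl3 -0.44 and Hmox1 -0.66. Of genes that were higher in GM, H2afx 0.64, Stmn1 0.73 and Snhg15 0.78 had larger effects at DM2.

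Among genes lower in GM the difference was positive in Scn7a 1.57, Peg3 1.05, Itgb3 0.41 and Lmod1 0.85, and negative, so that the gene was lower still at DM2, in Ulk2 -0.50 and Crim1 -0.87. Of genes not called in GM, Mapk6 -0.70, Ern1 -0.61 and Fzd1 -0.62 had a more negative effect at DM2, and mt-Nd5 2.26 a more positive one. Mapk6 itself went from -0.15 in GM to -0.855 at DM2. mt-Nd5 went from -0.64 to 1.63, and the mitochondrial share of gene counts ranged from 0.827 to 5.51% over all 18 libraries.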

How the results depend on the processing

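Of the 946 genes called between ERK3-depleted and control cells in GM the count stayed within 1.5 times under RLE size factors, limma-voom, a 1 CPM filter, the 6 libraries alone, RSEM expected counts and unstranded counts (850 to 998). It was 1521 with DESeq2, 1482 with no filter, 1668 when each library's outside-gene read share entered as a covariate, 45 at an adjusted p under 0.01, 0 by glmTreat (233 at an unadjusted p under 0.05), 590 with length and GC offsets (394 of the 946 among them), 36 on log2(TPM + 1) and 0 on log2(TPM + 0.1), where limma gave 2215 genes at an unadjusted p under 0.05. Of the 36 calls 27.8% were higher, against 54.9% of the 946. Leaving out 1 library gave 0 to 1101, and leaving out library 1 of both lines, added after seeing the data, 184. For each moved count the cause was not tested.

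With the replicate block the count was 1905, with length and GC offsets as well 1793, and with only the 6 libraries, a fit added after seeing the data, 2995. Among named genes the block ended the call of Mt2 and added Fads1, Ern1, Maml3 and Fzd1, and it changed no other named call.

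Between ERK3-depleted and MK5-depleted cells the 0 calls became 11 with DESeq2, 165 with no filter, 1 on expected counts and 2 with offsets and block. Leaving out 1 library gave 0 to 1, the 1 being Igfbp4 without MK5-depleted library 2 (1.43, adjusted p = 0.0108).

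The 3983 genes whose effect differed between media became 1496 at an adjusted p under 0.01, 20 by glmTreat, 5977 on log2(TPM + 1) and 200 with the outside-gene read share as covariate (62.0% of them positive). Leaving out 1 library gave 2459 to 5835, the extremes without ERK3-depleted DM2 libraries 2 and 3. On TPM 10% of the calls (9.83% with a pseudocount of 0.1) were positive against 51.0%, and the median over all genes moved from 0.02 to -0.40 (-0.46 with 0.1).

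Mapkapk5, uncalled at -0.51, had 0.11 on expected counts and 0.10 on both TPM scales. DESeq2 gave Mapkapk5 and Vgll2 no adjusted p. With 3 libraries a group and 17.5 to 22.4 M counts each, a missing call does not show equal levels, and genes near 1 CPM have imprecise folds.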
